A study of Mus musculus with 24 samples.

Results

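The Fc and scavenger receptors of microglia were followed here as 10 genes, out of 24411 genes measured in every library. The set holds the receptors for the constant (Fc) part of immunoglobulin G, which are *Fcgr1*, *Fcgr2b*, *Fcgr3* and *Fcgr4*, their signalling partners *Fcer1g* and *Syk*, and the scavenger and mannose receptors *Msr1*, *Mrc1*, *Cd163* and *Marco*. The experiment addressed whether mutant SOD1 changes astrocytes and microglia by itself, at rest and once the cells are stimulated. Glia came from wild-type (WT) mice and from *SOD1G93A* mice, a model of familial amyotrophic lateral sclerosis on the C57BL/6J background that carries a mutated human *SOD1* transgene which is not restricted to glia. Microglia were isolated from whole brains of perfused pups at P7–P10 with magnetic beads against Cd11b, and astrocytes from P5 forebrain by panning on HepaCAM after negative panning on CD45, BSL I and O4 plates against microglia, endothelial cells and oligodendrocyte lineage cells. Both were kept without serum, the microglia with TGF-β2, IL-34, cholesterol and heparan sulfate and the astrocytes with HBEGF. There were 7 groups of 3 libraries. These were quiescent WT microglia, WT and *SOD1G93A* microglia given 50 ng/mL of the bacterial lipopolysaccharide LPS, quiescent WT and *SOD1G93A* astrocytes, and WT and *SOD1G93A* astrocytes activated by C1q (400 ng/mL) together with TNFα (30 ng/mL) and IL-1α (3 ng/mL). Of 24 libraries in the series, the 3 from resting *SOD1G93A* microglia were left out, so the LPS response within *SOD1G93A* microglia could not be tested. The 21 libraries held 2016139 to 11570122 reads over genes, with a median of 5098168.

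Activating Fcγ receptors have no signalling motif of their own and pair with the FcRγ chain encoded by *Fcer1g*, whose immunoreceptor tyrosine-based activation motif (ITAM) is phosphorylated once IgG-coated targets cluster the receptors. The kinase SYK docks on that motif and starts the actin rearrangements of phagocytosis, while FcγRIIB, the product of *Fcgr2b*, carries an inhibitory motif (ITIM) that recruits the phosphatase SHIP1 and damps the same pathway. Scavenger receptors bind modified lipoproteins, anionic debris and microbes without antibody, and microglia use both families to clear material from the brain.

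In WT microglia, LPS moved most of this set. Differences were tested with limma on log2(normalized count + 1), with p-values adjusted by the Benjamini-Hochberg method over all genes tested, and a gene was called at an adjusted p under 0.001 and a change over 2-fold. Of the 10 genes, 9 had a mean of at least 10 normalized counts and were tested, and 7 of those were called, beside 20.8% of the 10866 genes tested. *Fcgr1*, *Fcgr2b*, *Fcgr4*, *Syk*, *Msr1* and *Marco* rose, where 10.2% of all genes did, and *Fcgr3* fell, where 10.6% did. The median log2 change of the 9 genes was 2.05, beside 0.005 over all genes tested. Because these are bulk cultures, fewer cells of a type and less RNA per cell cannot be told apart.

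The activating receptors did not move together. *Fcgr1*, the high-affinity receptor FcγRI, stood at 724, 860.4 and 705 normalized counts in the 3 quiescent libraries and at 3549, 3180.1 and 2783 after LPS. Every LPS library lay above every quiescent library, and the log2 change was 2.05 (SE 0.11, limma adjusted p = 8.9e-08). *Fcgr4*, which binds IgG2a and IgG2b with intermediate affinity, went from 8.63, 12.6 and 18.2 normalized counts, which are 17, 6 and 24 reads, to 141, 114 and 129. The groups were far apart although the quiescent level was close to the detection floor, and the log2 change was 3.24 (SE 0.25, limma adjusted p = 1.4e-06). *Fcgr3*, the low-affinity receptor FcγRIII, moved the other way, from 1858, 2066 and 1850.5 normalized counts to 795, 752 and 759. All 3 LPS libraries lay below all 3 quiescent ones, with a log2 change of −1.32 (SE 0.08, limma adjusted p = 2.3e-07).

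*Fcgr2b*, the inhibitory receptor, had 149, 139 and 151 normalized counts in quiescent WT microglia and 1487, 1453 and 1440.2 after LPS. The spread within either group was small beside the gap, and the log2 change of 3.31 (SE 0.08, limma adjusted p = 4.0e-10) was close to that of *Fcgr4*. Among the signalling partners, *Syk* had 769, 854 and 837 normalized counts at rest and 4617, 5312 and 5302 after LPS, with no overlap and a log2 change of 2.63 (SE 0.09, limma adjusted p = 2.3e-09). *Fcer1g*, the chain that the activating receptors need, started far higher, at 5238, 6433 and 5751, and reached 11399.9, 9617 and 9419.9. All LPS libraries were above all quiescent ones, but the log2 change of 0.80 (95% interval 0.57 to 1.04, limma adjusted p = 7.9e-05) was under 2-fold and the gene was not called.

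Among the scavenger receptors, *Marco*, a class A receptor with a collagen-like stalk that binds bacteria and particles, showed the largest change of the set. It had 13, 3 and 10 reads in the quiescent libraries, or 6.60, 6.31 and 7.57 normalized counts, and 693, 559 and 606 normalized counts after LPS. Those groups did not overlap, and the log2 change was 6.31 (SE 0.15, limma adjusted p = 2.7e-10). *Msr1*, the class A scavenger receptor SR-A, was already well expressed at 1065, 1317 and 1169 normalized counts and stood at 3371, 3589 and 3235 after LPS, a log2 change of 1.52 (SE 0.09, limma adjusted p = 2.4e-07) with no overlap. *Mrc1*, the mannose receptor, had 20, 13 and 24 reads at rest and 2, 0 and 4 after LPS. All 3 LPS libraries were lower, but at this depth the log2 change of −2.88 (SE 0.68) had a limma adjusted p of 0.0043 and was not called, while DESeq2 on the recovered reads called it and edgeR did not. *Cd163*, the receptor for haemoglobin bound to haptoglobin, had 0 reads in all 6 libraries.

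**Figure D1:**
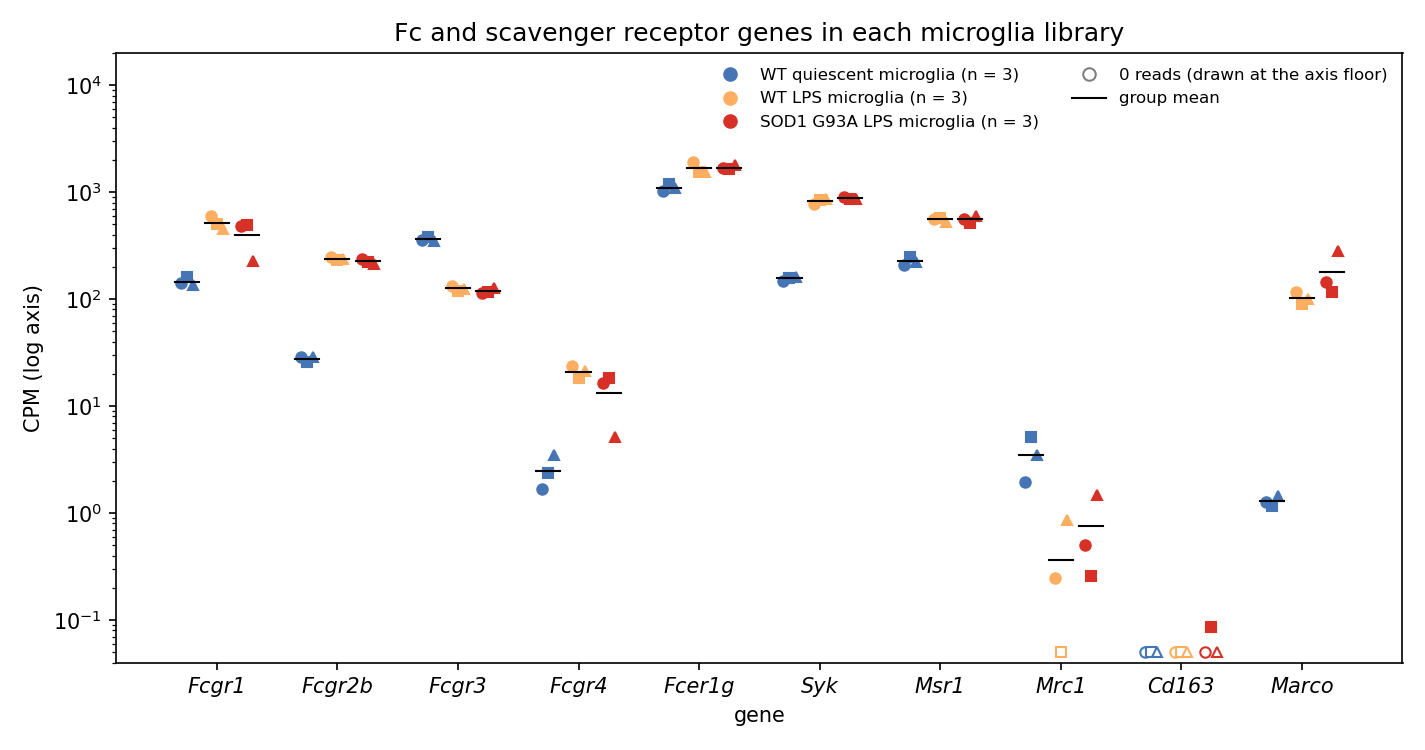
CPM (reads of a gene scaled to equal library totals) of the genes in each WT quiescent, WT LPS and *SOD1G93A* LPS microglia library, on a log axis, with 1 point for each library, a bar at the group mean and open points at the axis floor for 0 reads. *Fcgr3* is the abundant gene that is lower after LPS, *Marco* rises from near 1 CPM to a mean of 102 in WT libraries, and *SOD1G93A* LPS replicate 3 (triangle) is set apart for *Fcgr1*, *Fcgr4* and *Marco*.

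Levels of different genes were compared per length, as RPKM, which is CPM for each kilobase of exon. In quiescent WT microglia *Fcer1g* was the most abundant at 1262 ± 105 (mean ± SD, n = 3), followed by *Fcgr3* at 211 ± 9.82, *Fcgr1* at 56.0 ± 5.29, *Msr1* at 35.4 ± 3.07 and *Syk* at 16.7 ± 0.62. *Fcgr2b* at 4.81 ± 0.29, *Fcgr4* at 1.99 ± 0.72, *Marco* at 0.67 ± 0.07 and *Mrc1* at 0.55 ± 0.25 came next, and among these neighbours the libraries of *Marco* and *Mrc1* overlapped. After LPS the WT order was *Fcer1g* at 1904 ± 245, *Fcgr1* at 201 ± 26.9, *Syk* at 88.8 ± 5.41, *Msr1* at 87.7 ± 3.47, *Fcgr3* at 72.6 ± 3.85, *Marco* at 52.8 ± 7.04, *Fcgr2b* at 41.3 ± 1.56 and *Fcgr4* at 16.7 ± 2.15. *Syk* and *Msr1* overlapped there and the other neighbours did not, while *Mrc1* was at 0.06 ± 0.07. These orders rest on the length used. With the longest principal transcript, also chosen after seeing the data, *Msr1* was at 158 at rest and 391 after LPS, above *Fcgr1* in both groups, *Syk* was at 155 after LPS, and *Fcgr2b* at 67.5 was above *Marco* after LPS. On the CPM scale, which RPKM shares, the LPS changes of WT microglia came out lower than on normalized counts by a median log2 shift of −0.21 over 4413 well-covered genes.

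The transcripts of the 4 Fcγ receptors changed in composition more than in amount. Summed per length they made up 274 ± 14.6 RPKM at rest and 331 ± 32.7 after LPS (n = 3 each). *Fcgr3* made up 77.4%, 76.5% and 77.3% of that sum in the quiescent libraries and 20.8%, 21.6% and 23.5% in the LPS libraries. *Fcgr1* took 20.2%, 21.4% and 19.7% at rest and 62.4%, 61.3% and 57.7% after LPS, so the leading receptor differed between the groups in every library. The share of the inhibitory *Fcgr2b* was 1.86%, 1.54% and 1.90% at rest and 11.7%, 12.5% and 13.3% after LPS, and that of *Fcgr4* 0.50%, 0.65% and 1.05% at rest and 5.11%, 4.54% and 5.51% after LPS. The ratio of the 3 activating receptors, summed, to *Fcgr2b* was 52.8, 63.9 and 51.7 in quiescent libraries and 7.56, 6.98 and 6.49 in LPS libraries. That ratio was lower in each LPS library than in any quiescent one, with means of 56.2 ± 6.73 and 7.01 ± 0.53, and it is a description with no test. *Fcer1g* per unit of activating receptor transcript was 4.42, 4.80 and 4.87 at rest and 6.72, 6.28 and 6.67 after LPS. With the longest principal transcript as the length, an alternative chosen after seeing the data, the mean ratios were 42.2 and 4.60, and *Fcgr3* and *Fcgr1* still led in the quiescent and LPS libraries of WT cells.

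**Figure D2:**
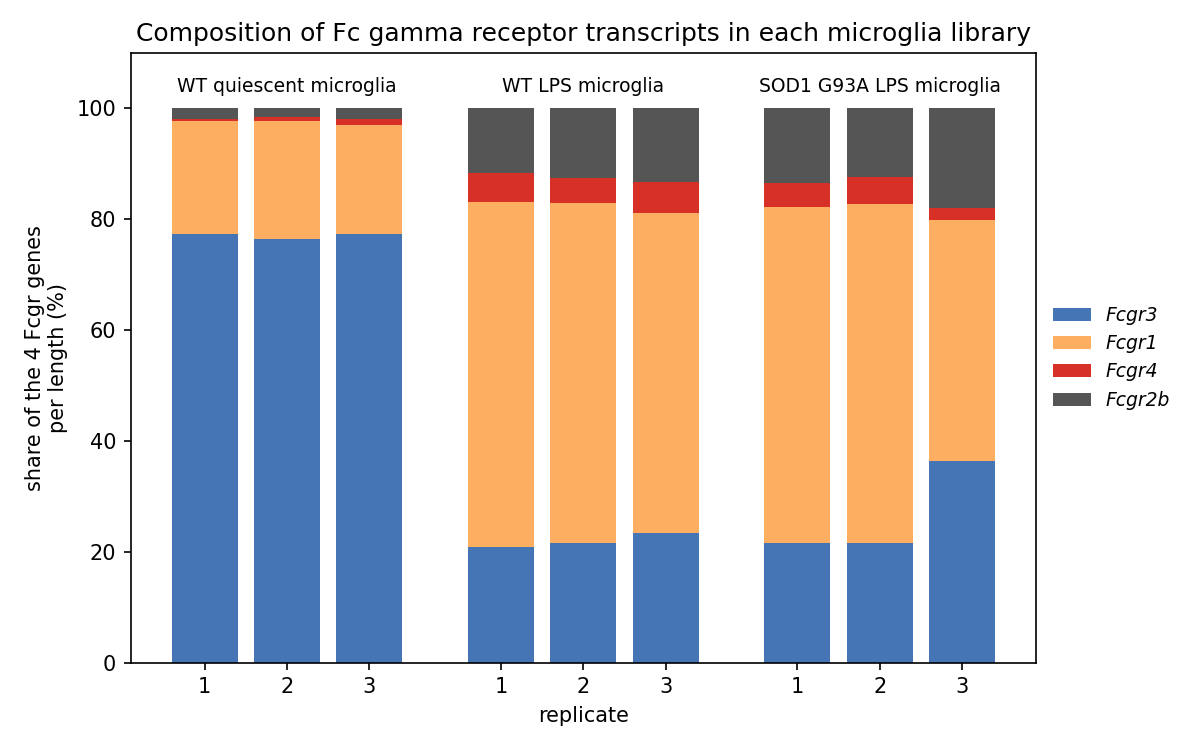
Share of each Fcγ receptor gene in the summed per-length level (RPKM) of *Fcgr1*, *Fcgr2b*, *Fcgr3* and *Fcgr4*, in percent, with 1 bar for each of the 9 microglia libraries. *Fcgr3* fills 76.5% to 77.4% of the bars of the quiescent libraries, *Fcgr1* leads in all 6 LPS libraries on this length, and *SOD1G93A* LPS replicate 3 has the largest *Fcgr2b* share at 18.0%.

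Genes that stand beside these receptors in the pathway split in both directions in WT microglia given LPS. Over the 6 lists limma called 43 of 82 tested genes, where 20.8% of all genes tested were called, 10.2% up and 10.6% down. The lists, like the 10 genes, were chosen with earlier results of these data known. Their counts beside the shares of all genes, here and in later comparisons, are therefore a description and not an independent test. In the ITAM and Fc receptor signalling list 5 of 20 tested genes rose and 4 fell (median log2 change 0.33), led by the adaptors *Blnk* at 1.98 and *Lcp2* at 1.84 and the PI3K subunit *Pik3r5* at 1.83, and on the other side by the kinase *Fgr* at −2.19, the adaptors *Lat2* at −1.53 and *Tyrobp* at −1.28 and the phospholipase *Plcg2* at −1.22. Of 20 tested inhibitory receptors and phosphatases 6 rose and 3 fell (median 0.48), with the ITIM receptors *Pilra* at 4.30, *Siglece* at 4.21, *Clec4a2* at 2.22 and *Pirb* at 2.09 against *Lair1* at −2.88, *Cd300a* at −2.04 and *Inpp5d*, which encodes SHIP1, the partner of FcγRIIB, at −1.75. Among other Fc receptors 4 of 11 were tested and all were called (median −1.53), the intracellular antibody receptor *Trim21* at 2.75, the receptor-like *Fcrl1* at −2.36 and *Fcrls* at −1.79, and the neonatal receptor *Fcgrt* at −1.27. Of 11 tested scavenger receptors outside the set 2 rose and 6 fell (median −1.22), *Cd36* at 2.46 and *Olr1* at 2.25 against *Lrp1* at −2.40, *Colec12* at −2.22, *Cd5l* at −2.11 and *Scarb1* at −1.29 as the leading ones. The lectin pattern receptors had 4 genes up and 2 down of 8 (median 1.49), with *Clec2d* at 5.30, *Clec4e* at 4.29, *Clec4n* at 2.53 and *Clec4d* at 2.06 against *Mrc2* at −3.00 and *Clec5a* at −1.75. Of 19 tested genes of the phagocytic actin machinery, the GTPase *Rac2* rose by 1.93 and 6 fell (median −0.36), among them *Pak1* at −2.10, *Gsn* at −1.94, *Elmo1* at −1.74 and *Dock2* at −1.24.

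The treatment label was borne out in this comparison by *Nos2* at 7.65, *Il1a* at 7.46, *C3* at 4.68 and *Tnf* at 4.66 on the log2 scale. Cell type markers also moved with LPS. Of 12 microglia markers 9 fell (median −2.29), and their summed level was 9126, 9545 and 9043 CPM in quiescent WT libraries and 2348, 2375 and 2468 in LPS libraries, with *Csf1r* the most abundant at rest, *Itgam* after LPS and none at 0. Of 4 tested monocyte markers 3 rose, *Ly6c2* at 4.58, *F10* at 3.98 and *Ccr2* at 1.82, while the 8 markers summed to 37.3, 30.2 and 39.8 CPM at rest and 47.4, 49.0 and 50.3 after LPS. The most abundant of them was *Spn* in both groups, *Chil3* was at 0 in both and *Plac8* was at 0 after LPS. The border macrophage markers, a list that contains *Mrc1* and *Cd163*, summed to 132, 144 and 144 at rest and 616, 701 and 711 after LPS, with *Siglec1* (2.66) and *Ms4a7* (2.60) up of 5 tested and *Siglec1* the most abundant. *Lyve1*, *Ccl24*, *Mgl2* and *Cd163* were at 0 in both groups, and *Clec10a* and *Cd209f* at rest. Neutrophil markers summed to 0.52 at rest and 4.34 after LPS with *S100a8* leading and *Ltf*, *Retnlg*, *Elane* and *Ngp* at 0 in both, and lymphocyte markers to 1.25 and 0.77, with *Klrb1c* leading at rest, *Cd79a* after LPS and *Cd3e*, *Cd3g* and *Ncr1* among those at 0, and no gene of either list reached the filter. The sum of oligodendrocyte lineage markers was 1371 at rest and 144 after LPS, mostly through *Cspg4*, which was at 1229 and 65.6, with 2 of 6 tested genes called lower and a median log2 change of 0.20, and astrocyte markers, led by *Gfap*, were at 184 and 215, with *Gja1* (2.72) and *Slc1a2* (2.28) up of 10 tested. Endothelial markers were at 72.6 and 50.9 with 2 of 3 tested up and 1 down, pericyte and fibroblast markers at 7.50 and 18.3 with 1 of 4 up, and neuron markers, led by *Map2*, at 17.1 and 12.5 with limma calling 0 of 1, which was also not under an unadjusted p of 0.05. The part of these markers in the receptor changes was not tested.

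*SOD1G93A* microglia given LPS were also set against the quiescent WT libraries, a comparison that mixes genotype with stimulation and shares its control libraries with the one above. Of the 9 genes tested limma called 5, beside 15.7% of 10921 genes, with 4 up where 8.22% of genes were up and *Fcgr3* down where 7.51% were down, and the median log2 change was 1.61 beside 0.009 over all genes. *Fcgr2b* stood at 1594, 1459.9 and 1345 normalized counts in the 3 *SOD1G93A* LPS libraries (log2 change 3.23, SE 0.09, adjusted p = 2.1e-08), *Syk* ranged from 5415 to 6029 (2.71), *Msr1* from 3378 to 3819.9 (1.54) and *Marco* from 755 to 1775 (7.05). *Fcgr3* ranged from 759 to 813, below all quiescent libraries at 1964 to 2196, with a log2 change of −1.39. *Fcer1g* was again higher without reaching 2-fold, with a log2 change of 0.85 and a limma adjusted p of 5.4e-05. *Mrc1* had 3, 3 and 6 reads and a log2 change of −1.96 (limma adjusted p = 0.018), and *Cd163* had 1 read in 1 library. Cell type markers moved here too, and their part was not tested. Of 12 microglia markers 9 were lower (median −1.61), with the sums given below for each library. Of 5 tested border macrophage markers *Siglec1* (2.65) and *Ms4a7* (2.40) were higher, with sums of 696, 613 and 625 CPM, *Siglec1* leading and *Lyve1*, *Clec10a* and *Mgl2* at 0. Of 4 tested monocyte markers *Ly6c2* (3.94) and *F10* (3.69) were higher, and of 6 tested oligodendrocyte lineage markers *Cspg4* (−2.95) and *Mbp* (−1.98) were lower. The astrocyte markers *Gja1* (2.93) and *Slc1a2* (2.07), the endothelial marker *Pecam1* (4.04) and the fibroblast marker *Dcn* (4.31) were higher, and the endothelial marker *Flt1* (−3.31) lower. The label checks *Il1a* and *Nos2* were at 6.90 (SE 0.16) and 6.40 (SE 0.74).

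*Fcgr1* and *Fcgr4* did not pass in limma there, though DESeq2 and edgeR called both, and 1 library was far from the other 2. *Fcgr1* was at 3195, 3217 and 1453 normalized counts in *SOD1G93A* LPS replicates 1, 2 and 3, and its log2 change of 1.61 (SE 0.27) had a limma adjusted p of 0.00101. *Fcgr4* was at 109, 121 and 32.9, with a log2 change of 2.42 (SE 0.48) and a limma adjusted p of 0.0026. Replicate 3 was the low library for both genes, still above all quiescent libraries. Without it 8 of 9 genes were called, with log2 changes of 1.99 for *Fcgr1* (limma adjusted p = 5.6e-11) and 3.01 for *Fcgr4*, and *Mrc1* was called too at −2.49. *Fcgr1* passed in 8 of 16 alternatives, with adjusted p from 5.6e-11 to 0.0064. Over the 6 lists of related genes limma called 37 of 83 tested genes, where 15.7% of all genes were called, 8.22% up and 7.51% down. In the lists of related genes there were 4 up and 2 down of 20 ITAM signalling genes (median 0.21; *Blnk* 2.07, *Pik3r5* 1.88, *Lat2* −1.22, *Tyrobp* −1.18) and 6 up and 3 down of 20 inhibitory genes (0.49; *Pilra* 4.54, *Siglece* 4.44, *Lair1* −2.27, *Cd300a* −2.07). Other Fc receptors had 1 up and 2 down of 4 (−1.34; *Trim21* 2.39, *Fcrl1* −2.06, *Fcrls* −1.72), and other scavenger receptors 2 up and 5 down of 11 (−1.07; *Olr1* 2.91, *Cd36* 2.46, *Lrp1* −2.25, *Colec12* −1.73). Lectin receptors had 6 up and 2 down of 9 (1.92; *Ly75* 4.33, *Clec2d* 4.27, *Mrc2* −2.96, *Clec5a* −1.28), and actin genes 1 up and 3 down of 19 (−0.25; *Rac2* 1.97, *Pak1* −1.73, *Elmo1* −1.57, *Gsn* −1.37).

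The direct comparison of genotypes after LPS asks whether stimulated *SOD1G93A* microglia differ from stimulated WT microglia. Limma called 0 of the 8 genes tested, as did edgeR and DESeq2, beside 0% of 10679 genes, and 1 of the 8 had an unadjusted p under 0.05, beside 8.71% of all genes. Over all genes limma and edgeR called 0 and DESeq2 2, and 930 had an unadjusted p under 0.05. *Marco* was at 688, 555 and 606 normalized counts in WT LPS libraries and 905, 708 and 1672 in *SOD1G93A* LPS libraries. It was the one tested gene of the set whose groups did not overlap, where 18.2% of all genes did not, and its log2 difference of 0.74 (SE 0.27, unadjusted p = 0.024, limma adjusted p = 0.57) did not pass. *Fcgr1* was at 3524, 3154 and 2783 in WT and 2972, 3016 and 1368 in *SOD1G93A* libraries, and *Fcgr4* at 140.01, 113 and 129 against 102, 113 and 31.0. The genotypes overlapped for both genes with the lowest value in *SOD1G93A* replicate 3, and the log2 differences were −0.44 (limma adjusted p = 0.61) and −0.83 (0.59). The remaining differences were −0.08 for *Fcgr2b* (95% interval −0.31 to 0.14), −0.07 for *Fcgr3* (−0.28 to 0.14), 0.04 for *Fcer1g* (−0.23 to 0.31), 0.08 for *Syk* (−0.17 to 0.33) and 0.01 for *Msr1* (−0.22 to 0.25), so each interval lay within a 2-fold change. The median over the 8 genes was −0.03, beside 0.008 over all genes. Without *SOD1G93A* LPS replicate 3 the differences of *Fcgr1*, *Fcgr4* and *Marco* were −0.07, −0.24 and 0.38.

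Replicate 3 of the *SOD1G93A* LPS group stood apart from the other LPS libraries in more than these genes. Its median correlation with them over 10679 genes was 0.963, where the other 5 had 0.981 to 0.989. Its microglia markers summed to 4291 CPM, beside 2741 and 2674 in the other *SOD1G93A* LPS libraries and 2348, 2375 and 2468 in the WT ones, with *Csf1r* the most abundant in the *SOD1G93A* group and none at 0. Of 11 tested microglia markers 6 did not overlap between the genotypes (median difference 0.35), nor did the 4 tested monocyte markers (median −0.51), where 18.2% of all genes did not. The monocyte markers summed to 53.7, 52.6 and 70.5 CPM in the *SOD1G93A* LPS libraries, with *Spn* the most abundant and *Plac8* and *Chil3* at 0, and limma called none of either list. Oligodendrocyte lineage markers summed to 185, 191 and 280 CPM in *SOD1G93A* LPS replicates 1, 2 and 3, and to 143 to 145 in the WT LPS libraries. Endothelial markers summed to 49.0, 58.0 and 24.7, and to 45.6 to 55.9 in the WT LPS libraries. In the per-length composition this library had 43.6% *Fcgr1*, 36.3% *Fcgr3*, 18.0% *Fcgr2b* and 2.03% *Fcgr4*, where replicates 1 and 2 had 60.6% and 61.3% *Fcgr1*, 21.6% and 21.6% *Fcgr3*, 13.5% and 12.4% *Fcgr2b* and 4.27% and 4.75% *Fcgr4*. With the principal transcript as the length *Fcgr3* led in replicate 3, at 38.4% beside 35.7% for *Fcgr1*. The ratio of activating receptors to *Fcgr2b* was 6.40, 7.05 and 4.54, and *Fcer1g* per unit of activating receptor was 7.21, 6.93 and 12.3. The part of these marker levels in the low *Fcgr1* and *Fcgr4* of that library was not tested. Per length the *SOD1G93A* LPS group had *Fcer1g* at 1945 ± 90.0, *Fcgr1* at 155 ± 57.2, *Marco* at 93.9 ± 45.6, *Syk* at 93.5 ± 2.80, *Msr1* at 88.4 ± 6.87, *Fcgr3* at 69.0 ± 4.30, *Fcgr2b* at 38.9 ± 2.33 and *Fcgr4* at 10.6 ± 5.69, where *Fcgr1*, *Marco*, *Syk* and *Msr1* overlapped as neighbours and *Marco* also overlapped with *Fcgr3*. That order too rests on the length. With the principal transcript *Msr1* was at 394 and *Syk* at 163, above *Fcgr1* at 155 and *Marco* at 93.9. In the 6 lists of related genes limma, edgeR and DESeq2 called 0 of 82 genes between the genotypes after LPS, and 12 had an unadjusted p under 0.05. Their medians were 0.06 for ITAM signalling, 0.06 for inhibitory genes, 0.18 for other Fc receptors, 0.06 for other scavenger receptors, 0.04 for lectin receptors and 0.11 for actin genes.

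Of the 10 genes 4 lie close together. On mouse build GRCm38, *Fcgr2b* (chr1:170958617-170976547, minus strand), *Fcgr4* (chr1:171018920-171029761, plus strand), *Fcgr3* (chr1:171051174-171064935, minus strand) and *Fcer1g* (chr1:171229572-171234365, minus strand) lie within 275749 bases of chromosome 1. Of 11 protein-coding genes in that interval 6 were tested in the WT LPS response and 3 were called, where 20.8% of all genes tested were. These were *Fcgr2b* and *Fcgr4*, up, and *Fcgr3*, down, so neighbours went in opposite directions. The interval was drawn around the 4 genes, and the 3 calls are those given above, so the count adds nothing about the region. *Fcer1g* was at 0.80, and the other tested neighbours *Sdhc* and *Tomm40l* at 0.15 and −0.18 were not called. *Marco* (chr1:120474538-120505024) is far away on the same chromosome, while *Fcgr1* (chr3:96282909-96293969), *Syk* (chr13:52583173-52648792), *Msr1* (chr8:39581685-39642673), *Mrc1* (chr2:14229392-14332057) and *Cd163* (chr6:124304656-124330527) lie on others. The Fcγ receptors are paralogs, and 9.58% of the 50-base stretches of *Fcgr3* exons also occur in *Fcgr2b*, while 4.38% of those of *Fcgr2b* occur in another gene, 166 of these 249 in *Fcgr3*. Part of the reads of these 2 genes could therefore have been assigned to another gene. In quiescent WT microglia *Fcgr3* averaged 366 CPM and *Fcgr2b* 27.8. Such reads could thus weigh more in the resting level and share of *Fcgr2b*, and in the ratio to it. How many there were was not tested. *Fcgr1*, *Fcgr4*, *Fcer1g*, *Syk*, *Msr1*, *Mrc1* and *Marco* shared none, and *Cd163* 0.07%. *Fcgr2b* overlaps an antisense transcript and *Fcgr3*, *Fcgr4* and *Mrc1* hold small RNA genes, and the libraries kept strand.

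Promoters are shown for the 3 activating receptors, which moved in different directions, and for *Marco*, the gene with the largest rise. RefSeq promoter windows on GRCm38.p6 were found for 9 of the 10 genes (*Msr1* had no entry), 11 windows in all, and the 250 bases before the start were searched on both strands for 4 motifs, in these genes and in all 32817 windows. The gamma-activated sequence TTCNNNGAA was present in 7.01% of all windows, the interferon-stimulated response element, searched as 2 GAAA repeats spaced by 2 bases, in 2.97%, the PU box GAGGAA, bound by the myeloid factor PU.1, in 23.3% and the NF-kB motif in 7.25%. The *Fcgr1* window (chr3:96293970-96294219, minus strand) held a gamma-activated sequence at −109 to −101 and a reversed PU box at −55 to −50. The *Fcgr4* window (chr1:171018676-171018925, plus strand) held an interferon-stimulated response element at −73 to −64, a reversed PU box at −22 to −17 and an NF-kB match at −152 to −143. The *Fcgr3* window (chr1:171059404-171059653, minus strand), which lies inside the annotated gene, held a reversed PU box at −6 to −1 and an NF-kB match at −152 to −143. The *Marco* window (chr1:120505025-120505274, minus strand) held a PU box at −146 to −141. Capitals mark the gamma-activated sequence, the response element and the PU boxes, and no match overlapped another.
Fcgr1 promoter: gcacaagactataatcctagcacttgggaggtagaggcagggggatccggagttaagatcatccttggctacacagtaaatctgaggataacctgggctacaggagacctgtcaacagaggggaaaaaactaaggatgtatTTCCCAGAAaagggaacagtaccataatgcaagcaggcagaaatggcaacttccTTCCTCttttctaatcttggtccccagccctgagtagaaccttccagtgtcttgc
Fcgr4 promoter: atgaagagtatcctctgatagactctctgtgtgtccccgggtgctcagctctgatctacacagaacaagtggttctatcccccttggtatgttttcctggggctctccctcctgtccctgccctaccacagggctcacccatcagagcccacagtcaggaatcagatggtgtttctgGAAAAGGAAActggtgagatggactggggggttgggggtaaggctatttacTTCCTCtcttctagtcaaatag
Fcgr3 promoter: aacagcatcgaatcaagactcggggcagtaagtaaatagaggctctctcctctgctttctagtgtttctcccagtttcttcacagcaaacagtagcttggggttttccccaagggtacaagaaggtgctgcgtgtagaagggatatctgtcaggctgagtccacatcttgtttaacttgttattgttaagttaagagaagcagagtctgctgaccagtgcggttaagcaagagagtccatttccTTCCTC
Marco promoter: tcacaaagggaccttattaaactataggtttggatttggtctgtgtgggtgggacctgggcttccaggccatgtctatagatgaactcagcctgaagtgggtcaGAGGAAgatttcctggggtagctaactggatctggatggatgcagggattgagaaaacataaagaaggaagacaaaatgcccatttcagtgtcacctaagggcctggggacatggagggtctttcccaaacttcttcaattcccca
PU boxes were also found in a window of *Syk* and 3 times in that of *Mrc1*, while the windows of *Fcgr2b*, *Fcer1g* and *Cd163* held none of these letters. Up to 27 bases of each window shown lie in annotated exons. In the *Fcgr2b* window 187 of 250 bases do, and another *Syk* window, without a match, lies wholly in exons. A match describes the sequence and says nothing of binding.

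Astrocyte cultures contained low levels of the same genes. In quiescent WT astrocytes *Fcer1g* had 18.8, 27.5 and 30.2 CPM and *Syk* 16.4, 15.9 and 19.3, while *Msr1* had 4.96, 6.32 and 8.96. The tables were normalized separately, so levels were set across them as CPM from recovered reads. Relative to the mean of quiescent WT microglia these levels were 2.31% for *Fcer1g*, 11.0% for *Syk* and 3.00% for *Msr1*, and *Fcgr3*, *Fcgr1* and *Fcgr2b* stood at 1.47%, 3.91% and 11.1%. *Fcgr4*, *Mrc1*, *Cd163* and *Marco* had 10, 1, 3 and 17 reads over the 3 libraries together, too few to test in any astrocyte comparison. From so few reads *Marco* was at 87.1%, *Fcgr4* at 27.0% and *Mrc1* at 2.61% of microglia levels that were themselves 1.30, 2.49 and 3.51 CPM. Per length the order was *Fcer1g* at 29.2 ± 6.80, *Fcgr3* at 3.10 ± 1.03, *Fcgr1* at 2.19 ± 0.34, *Syk* at 1.84 ± 0.20 and *Msr1* at 1.06 ± 0.32 RPKM, followed by *Marco* at 0.59 ± 0.38, *Fcgr4* at 0.54 ± 0.29 and *Fcgr2b* at 0.53 ± 0.09. On this length *Fcer1g* and *Syk* each lay above the gene that followed them in every library, and the other neighbours overlapped. This order too rests on the length. The longest principal transcript has 1424 bases for *Msr1* and 5363 for *Syk*, against 6344 and 9362 over all exons, and it was not applied to astrocytes.

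Microglia markers were also present in these astrocyte libraries. All 12 had reads, and they summed to 336, 391 and 451 CPM in quiescent WT, 517, 504 and 407 in quiescent *SOD1G93A*, 352, 444 and 333 in activated WT and 392, 295 and 316 in activated *SOD1G93A* astrocytes. *Sall1* led this sum in each group and was itself at 149% of its microglia level in quiescent WT astrocytes, so the other 11 markers were also summed, a choice made after seeing the values. Without *Sall1* the sums were 158, 216 and 261 in quiescent WT, 330, 345 and 241 in quiescent *SOD1G93A*, 178, 283 and 157 in activated WT and 219, 158 and 162 in activated *SOD1G93A* libraries. Their means were 2.32%, 3.35%, 2.26% and 1.97% of the microglia level. Astrocyte markers, led by *Slc1a3*, averaged 6498, 5663, 5216 and 5312 CPM in the same order of groups, oligodendrocyte lineage markers (*Olig1*) 3061, 3406, 1131 and 1107, neuron markers (*Map2*) 901, 978, 433 and 413, and endothelial markers 10.7, 7.14, 146 and 116, mostly *Flt1*. Pericyte and fibroblast markers averaged 12.7, 8.83, 50.0 and 36.7, monocyte markers (*Ace*) 11.5, 9.85, 11.4 and 16.9, border macrophage markers (*Siglec1*) 6.31, 10.9, 6.56 and 5.36, lymphocyte markers (*Klrb1c*) 2.46, 2.59, 2.56 and 4.92 and neutrophil markers 0.09, 0.18, 1.08 and 1.18. *Lyve1*, *Clec10a*, *Cd209f*, *Mgl2*, *Cd3e* and *Chil3* were among those at 0 in all astrocyte groups.

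In the cytokine response of WT astrocytes none of the tested genes passed the threshold used, and their reads were few. Limma called 0 of the 6 genes tested, as did edgeR and DESeq2, beside 11.5% of 12336 genes called by limma, and 0 had an unadjusted p under 0.05, where 46.8% of all genes did. A count of 0 of 6 is near that share of 11.5%. *Fcgr2b* had 5 to 32 reads in quiescent and 10 to 25 in activated WT libraries. The 95% intervals were wide, −1.09 to 0.51 for *Fcgr2b* and −0.48 to 0.96 for *Msr1*, so a change in these genes is not excluded. *Syk* had 14.7, 18.2 and 15.3 CPM in activated WT astrocytes, *Fcer1g* 20.0, 35.5 and 16.7 and *Msr1* 6.14, 12.6 and 5.74. Each overlapped with its quiescent values, and the log2 changes of the 6 genes ran from −0.29 for *Fcgr2b* to 0.24 for *Msr1* (limma adjusted p 0.57 to 0.87) with a median of −0.09 beside 0.01 over all genes. *Fcgr1* (−0.22), *Fcgr3* (0.08), *Fcer1g* (−0.11) and *Syk* (−0.08) lay between. The treatment itself was plain in *Lcn2* at 6.70 and *C3* at 6.30. Of the lists, ITAM signalling had 2 of 18 genes up (median 0.31), the PI3K subunits *Pik3cd* at 5.87 and *Pik3r5* at 2.72, other Fc receptors 1 of 3 (*Fcgrt* at 1.15), other scavenger receptors 2 of 12 (median 0.11), *Scara3* at 1.68 and *Cxcl16* at 1.11, and actin genes 1 of 19 (median 0.10), *Arpc1b* at 1.63. Lectin receptors had 1 of 7 down (median −0.16), *Mrc2* at −1.24, and limma, edgeR and DESeq2 called 0 of 12 inhibitory genes (median −0.01), 1 of which had an unadjusted p under 0.05.

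In *SOD1G93A* astrocytes the same cytokines were followed by a lower level of *Syk*. It had 26.2, 28.8 and 25.5 CPM in quiescent libraries and 13.2, 8.40 and 11.7 in activated ones, from 250, 209 and 84 reads and 49, 33 and 25 reads. All 3 activated libraries lay below all 3 quiescent ones, and the log2 change was −1.20 (SE 0.18, limma adjusted p = 4.0e-05), on reads of 2 deposited tables brought to a common scale with size factors. It was the 1 gene of 6 called, beside 13.1% of 12203 genes. *Fcer1g* went from 39.2, 43.2 and 28.9 CPM to 28.7, 14.3 and 17.3, with the highest activated library just below the lowest quiescent one and overlapping it after scaling by size factors, and a log2 change of −0.84 (SE 0.22, limma adjusted p = 0.0052). *Fcgr2b* at −1.11 (limma adjusted p = 0.035), *Fcgr3* at −0.80 (0.083), *Fcgr1* at −0.74 (0.053) and *Msr1* at −0.53 (0.11) did not pass either. Of these, *Fcgr2b* and *Msr1* did not overlap between the groups after scaling, while *Fcgr3* and *Fcgr1* did. The median of the 6 was −0.82 beside −0.01 over all genes. By limma 5 of the 6 had an unadjusted p under 0.05, where 50.3% of all genes did, so the lower level was not particular to *Syk*. The 9 tested microglia markers had a median of −0.68 with limma calling 0, and 7 of them had an unadjusted p under 0.05. *Fcer1g* was also called without *SOD1G93A* quiescent replicate 3 (−1.02) and without *SOD1G93A* activated replicate 1 (−1.12). *Lcn2* was at 6.16 and *C3* at 5.53.

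Before activation, the 6 tested genes had positive log2 differences between *SOD1G93A* and WT astrocytes, and none passed the test. The quiescent values of *Syk*, given above, did not overlap between genotypes, and its log2 difference was 0.62 (SE 0.14, unadjusted p = 0.0016, limma adjusted p = 0.26). *Msr1* was at 10.8, 11.7 and 9.72 CPM in quiescent *SOD1G93A* astrocytes, all above the WT libraries, a log2 difference of 0.67 (SE 0.25, limma adjusted p = 0.50). These were 2 of 6 genes without overlap, beside 14.6% of 12271 genes, and limma, edgeR and DESeq2 called 0 of the 6, beside 0% of all genes by limma. *Fcer1g* (0.52), *Fcgr3* (0.52), *Fcgr1* (0.37) and *Fcgr2b* (0.26) overlapped, and 3 of the 6 had an unadjusted p under 0.05, where 1068 of all genes did. Over all genes DESeq2 called 7 and edgeR 0. The median of 0.52, beside 0.002 over all genes, stood next to a median of 0.57 for 9 microglia markers. Mouse *Sod1* was at 0.03, which does not check the genotype because the transgene is human.

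After activation the order of the libraries was reversed for *Syk*, though the difference did not pass the test. Its *SOD1G93A* libraries all lay below the WT libraries, with a log2 difference of −0.50 (SE 0.18, unadjusted p = 0.013, limma adjusted p = 0.11), which made it 1 of 5 tested genes without overlap, beside 24.1% of 12098 genes. Over the alternatives the difference of *Syk* ran from −0.63 to −0.32 and was not called. Limma, edgeR and DESeq2 called 0 of the 5, beside 0.645% of all genes by limma, and 1 had an unadjusted p under 0.05, where 20.4% of all genes did. *Msr1*, at 8.60, 4.33 and 8.90 CPM in activated *SOD1G93A* astrocytes, and *Fcgr1*, *Fcgr3* and *Fcer1g* differed by −0.35 to −0.10 and overlapped. The median was −0.20 beside −0.004 over all genes, and −0.12 for microglia markers.

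Whether the cytokine response differed between genotypes was tested as an interaction over all 12 astrocyte libraries. For *Syk* the difference of log2 changes was −1.12 (SE 0.24, 95% interval −1.63 to −0.61), with an unadjusted p of 0.00024 and a limma adjusted p of 0.070. DESeq2 gave an adjusted p of 0.029 and edgeR 0.051, within a range of 0.029 to 0.24 over the alternatives, so no setting passed 0.001. Limma, edgeR and DESeq2 called 0 of the 6 genes, beside 0% of 12269 genes by limma, and 1 had an unadjusted p under 0.05, where 8.30% of all genes did. Over all genes DESeq2 called 22 and edgeR 4. The other genes had differences of −0.52 for *Fcgr1*, −0.72 for *Fcer1g*, −0.77 for *Msr1*, −0.82 for *Fcgr2b* and −0.87 for *Fcgr3*, with a median of −0.79 beside 0.002 over all genes and −0.60 for 9 microglia markers. The part of microglia RNA in these astrocyte differences was not tested.

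**Figure D3:**
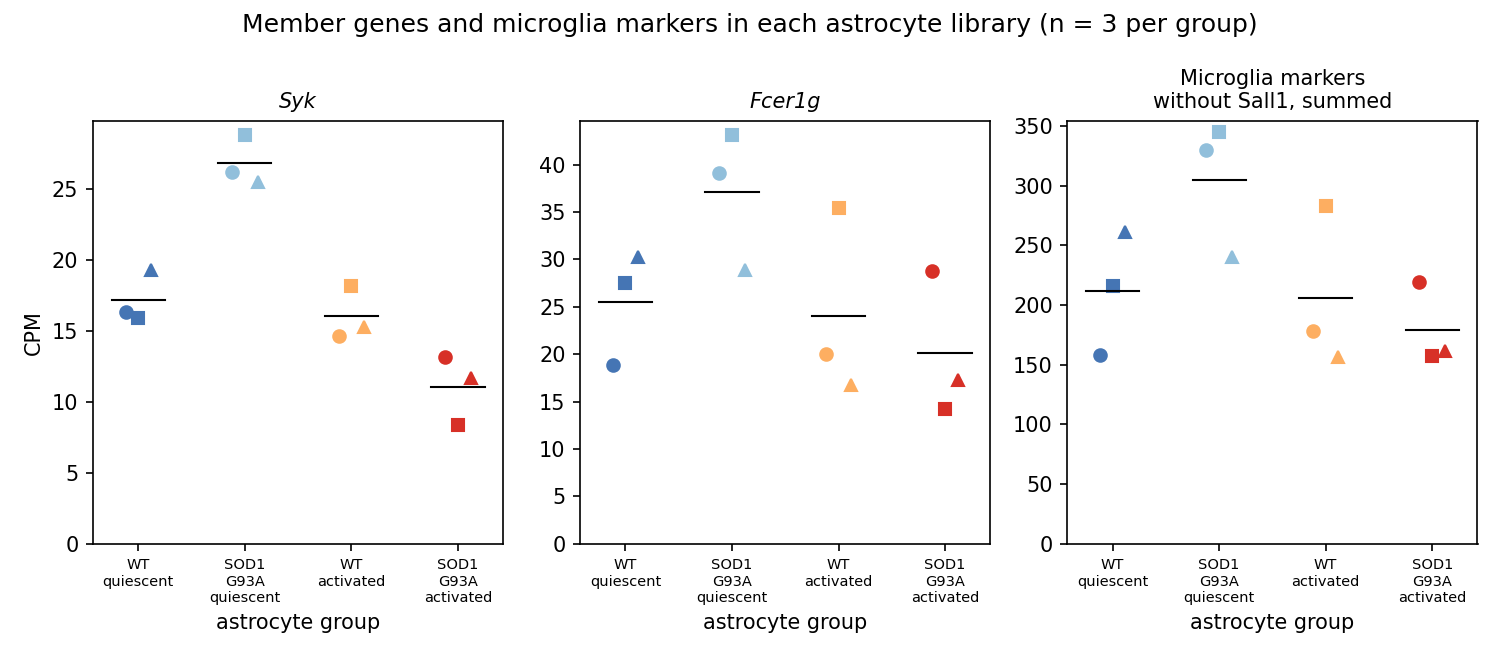
CPM of *Syk*, of *Fcer1g* and of 11 microglia markers summed without *Sall1* in each astrocyte library, with 1 point for each library and a bar at the mean of the 3 libraries of a group. *Syk* is highest in the 3 quiescent *SOD1G93A* libraries and lowest in the 3 activated *SOD1G93A* libraries, and the marker sum runs from 157 to 345.

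In *SOD1G93A* astrocytes after activation limma called 9 of 72 tested genes over the 6 lists of related genes, beside 13.1% of 12203 genes. ITAM signalling had 3 of 19 genes up (median −0.20), *Pik3cd* at 5.03, *Pik3r5* at 1.74 and *Prkcd* at 1.21. Inhibitory genes had 1 of 12 down (−0.78), the receptor *Cd72* at −1.05, other Fc receptors 1 of 3 up (0.59), *Trim21* at 2.12, and other scavenger receptors 1 up and 1 down of 13 (−0.26), *Scara3* at 1.65 and *Megf10* at −1.03. Lectin receptors had 1 of 6 down (−0.66), *Mrc2* at −1.50, and actin genes 1 of 19 up (−0.09), *Arpc1b* at 1.69. Across the 6 lists limma, edgeR and DESeq2 called 0 of 72 genes between quiescent genotypes, 0 of 70 between activated genotypes and 0 of 72 in the interaction, and 15, 19 and 21 had an unadjusted p under 0.05, where 8.70%, 20.4% and 8.30% of all genes did. The 3 replicates of a group are separate samples by their labels, but the sources used here do not show whether they came from separate cultures or litters. The paper refers to a supplementary table, not available here, for its numbers of biological replicates. The p-values measure the spread between these samples, which may be technical.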

How the data were processed

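Polyadenylated RNA was made into strand-specific paired-end libraries and sequenced on an Illumina HiSeq instrument. The authors aligned reads with STAR 2.7.3a to the mouse genome mm10, counted them with RSEM and normalized them with DESeq2, and each deposited table holds 2 groups as a signal, the count of a gene divided by the size factor of the library, with each table normalized separately. The deposited tables also hold the authors' own log2 fold change, test score and p-value columns, and none of those was used. The annotation behind the counts is not given in the sources used here.

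Dividing by the step of each column returned whole reads for 100% of values within a tolerance of 0.02, and these recovered reads gave depth, CPM and RPKM (exons of GENCODE M21). Testing was limited to genes averaging 10 or more normalized counts and used limma 3.58.1 in R 4.3.3, whose prior variance followed intensity, on the log2 of the normalized count plus 1, 3 libraries against 3, with Benjamini-Hochberg adjustment over all genes. A fold change is on that scale, which understates changes of low genes. The *SOD1G93A* cytokine response and the interaction used recovered reads scaled by median-of-ratios size factors, because no table used here held those groups together. edgeR 4.0.16 and DESeq2 1.42.0 on recovered reads, other pseudocounts, filters and scalings, a replicate block and leaving out each library were alternatives. The fitting code was tested on simulated data. The genes named beside the 10 were, for each of 6 lists of related genes, up to 4 called genes with the largest rise and fall in the WT LPS response, and elsewhere all called genes where there were at most 4, otherwise the 2 largest each way, with *Il1a*, *Nos2*, *Tnf*, *C3*, *Lcn2* and *Sod1* as label checks and the leading and absent genes of 10 cell type marker lists. The 10 genes and the lists were chosen with earlier results of these data known.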

Additional observations from a re-analysis of the deposited data

Results flagged for a closer look

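*Syk* drew attention because genotype went with opposite differences at rest and after activation in astrocytes. It was higher in *SOD1G93A* than in WT libraries when quiescent and lower when activated, without overlap in either state, where 14.6% and 24.1% of all genes did not overlap. Neither difference passed (limma adjusted p 0.26 and 0.11). Over the alternatives the difference between activated genotypes ran from −0.63 to −0.32. The difference of the log2 differences, tested as an interaction, was −1.12 with a limma adjusted p of 0.070, the range over alternatives being 0.029 to 0.24. The sum of 11 microglia markers without *Sall1* averaged 212 and 305 CPM in quiescent WT and *SOD1G93A* libraries and 206 and 179 in activated ones, and its part in this result was not tested.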

How the results depend on the processing

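Of 904 values of member genes under alternatives 863 kept their direction and side of the threshold, 22 passed it anew and 19 changed sign, the last only in genes that were not called, and of 1351 values of other named genes 1308 kept theirs and 43 no longer passed. The count of called genes in the WT LPS response was 7 under every left-out library and with a replicate block, 8 by DESeq2 and 9 at an adjusted p under 0.05 with any fold change. It was 5 of the 6 still tested with at least 10 normalized counts in every library. That filter took out *Fcgr4* and *Marco*, whose lowest libraries had 8.63 and 6.31, and no tested gene lost its call. For *SOD1G93A* LPS against quiescent WT microglia it was 5, but 7 by DESeq2 and by edgeR and 9 at that relaxed threshold. It was 6 with no filter and with a pseudocount of 5, and 5 to 8 with 1 library left out, 8 without *SOD1G93A* LPS replicate 3. For the *SOD1G93A* cytokine response it was 1, but 3 at the relaxed threshold and 1 to 2 with 1 library left out. Same-numbered libraries showed no clear positive pairing (correlations of their deviations −0.44 to 0.06). The values of −0.40 and −0.44 were those of replicates 1 and 3 between genotypes in quiescent astrocytes, and their source was not tested. A paired fit with a replicate block gave 6 for *SOD1G93A* LPS against quiescent WT microglia, 1 for the *SOD1G93A* cytokine response and 0 where the count was 0.

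Over all genes the relaxed threshold gave 6185 in place of 2263 in the WT LPS response, 5883 in place of 1718 for *SOD1G93A* LPS against quiescent WT microglia, 4722 in place of 1424 in the WT and 5262 in place of 1604 in the *SOD1G93A* cytokine response and 879 in place of 78 between activated astrocytes. In the same order the replicate block gave 2201, 1588, 1423, 1584 and 100, and leaving out 1 library 1991 to 2334, 1263 to 2187, 1087 to 1547, 1465 to 1611 and 67 to 81. Where limma called 0, the relaxed threshold gave 1 between genotypes after LPS, 7 in quiescent astrocytes and 34 in the interaction, and the replicate block 0. DESeq2 called 2 genes between genotypes after LPS, 7 in quiescent astrocytes and 22 in the interaction, where edgeR called 4, a pseudocount of 5 gave 3 and leaving out 1 library gave 0 to 6. The sign changes were in genes whose main log2 difference was not called, the largest being −0.35 for *Fcgr3* between activated genotypes. With 1 library left out, the genotype difference after LPS ran from −0.0048 to 0.13 for *Fcer1g* and −0.024 to 0.068 for *Msr1*. The WT cytokine response ran from −0.14 to 0.34 for *Fcgr3*, −0.42 to 0.10 for *Fcer1g*, −0.16 to 0.028 for *Syk* and −0.11 to 0.48 for *Msr1*, and DESeq2 and edgeR gave −0.0081 and −0.040 for *Fcgr3*. In activated astrocytes the genotype difference ran from −0.30 to 0.12 for *Fcgr1*, −0.72 to 0.019 for *Fcgr3*, −0.49 to 0.11 for *Fcer1g* and −0.29 to 0.25 for *Msr1*. Values that kept their sign moved as well. Over all alternatives the WT cytokine response ran from −0.48 to −0.06 for *Fcgr1* and −0.57 to −0.08 for *Fcgr2b*. The *SOD1G93A* cytokine response ran from −0.71 to −0.21 for *Msr1* and −1.17 to −0.43 for *Fcgr3*. The cause of these shifts was not tested. The set could not be tested in full, since *Cd163*, and in astrocytes also *Fcgr4*, *Mrc1* and *Marco*, had too few reads. *Mrc1* was also below the filter between genotypes after LPS, as was *Fcgr2b* between activated astrocytes. The part of depth in this was not tested.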
